A study of Zea mays with 29 samples.

Results

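Among maize (Zea mays) leaves with a balanced diploid genome, 150 genes differed most from plant to plant in both of 2 independent sets of diploid controls. They were chosen from 8869 eligible genes, 1.69% of them, in tables that list 40306 gene identifiers. A gene was eligible if it averaged at least 10 CPM (counts per 1000000 counted reads of the library) over the diploids of each set, and if its identifier lay outside a run of 3187 consecutive numbers. That run was found earlier in these data to follow the copy number of 1L, the long arm of chromosome 1. For each eligible gene the standard deviation (SD) of log2(CPM + 0.5) was taken over the 4 diploids of series 1 and over the 3 diploids of series 2, and genes were ranked by the smaller of the 2 SDs. The spread among diploids is therefore what chose these genes and is given below only as a description.

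The study compared leaf RNA of maize plants that differed in ploidy or in copies of 1L, with poly(A)-selected libraries in 2 dosage series. Series 1 held 2 disomic haploids (a haploid genome with 2 copies of 1L), 3 haploids (1 copy), 4 diploids (2 copies), 5 trisomics (3 copies) and 3 tetrasomics (4 copies). Series 2 held 4 monosomics (1 copy), 3 diploids (2 copies) and 3 trisomics (3 copies). The 27 RNA libraries are called biological replicates by the submitters. Haploids, trisomics, tetrasomics and monosomics were compared with the diploids of their own series, and disomic haploids with haploids, tetrasomics with trisomics and series 2 trisomics with monosomics, 8 comparisons in all. The sources used here give no age, inbred background, growth conditions or sampling time, and the leaf label could not be checked against marker genes because no source used here pairs the identifiers with gene names.

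Plants tolerate the gain or loss of a chromosome arm, and aneuploid maize has long been used to ask how expression of the varied arm and of the rest of the genome follows dosage. A change on the varied arm is called a cis effect and a change elsewhere a trans effect. All 150 variable genes lie outside the run taken for 1L, so any response of theirs to 1L dosage would count as a trans response. In leaves generally, transcripts of the circadian clock, of stress and heat responses and of defence can differ widely between plants of the same genotype. Which of these roles the variable genes hold, if any, could not be looked up.

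Series 1 libraries held 13199571 to 18923160 counted reads each, and series 2 libraries 14115560 to 19860440. The least covered of the 150 genes averaged 157 reads over the diploids of a series, which corresponds to a counting SD of about 0.12 on the log2 scale. The reads carry no molecular identifiers, so that figure covers counting error only. No pair of libraries of 1 group was as alike as repeat counts of 1 library would be, since the smallest chi-square per gene between such libraries was 25.9. Series 1 diploid replicate 1 stood apart among its group: it was the highest or the lowest of the 4 diploids for 120 of the variable genes (80.0%) and for 78.3% of the other eligible genes. When that library was left out, the same rule chose 82 of the 150 genes again. Leaving out replicate 1 of the series 2 diploids kept 71, and leaving out any other diploid kept 101 to 134.

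The variable genes differed several-fold between diploid plants. The highest diploid exceeded the lowest by a median of 3.63-fold in series 1 (range 2.36 to 268) and 2.84-fold in series 2 (range 2.04 to 55.4), against 1.5-fold and 1.31-fold for the other eligible genes. The median SD was 0.79 in series 1 and 0.77 in series 2 (log2), against 0.26 and 0.20 for the others. At the edge of the list, the gene ranked 150 had a smaller SD of 0.570 and the next gene, left out, one of 0.567, so the list ends within a continuous distribution. Over all eligible genes the 2 SDs had a Spearman correlation of only 0.16. The 444 genes in the top 5% of SD in series 1 and the 444 in the top 5% in series 2 shared 115, or 25.9% of each list.

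**Figure D1:**
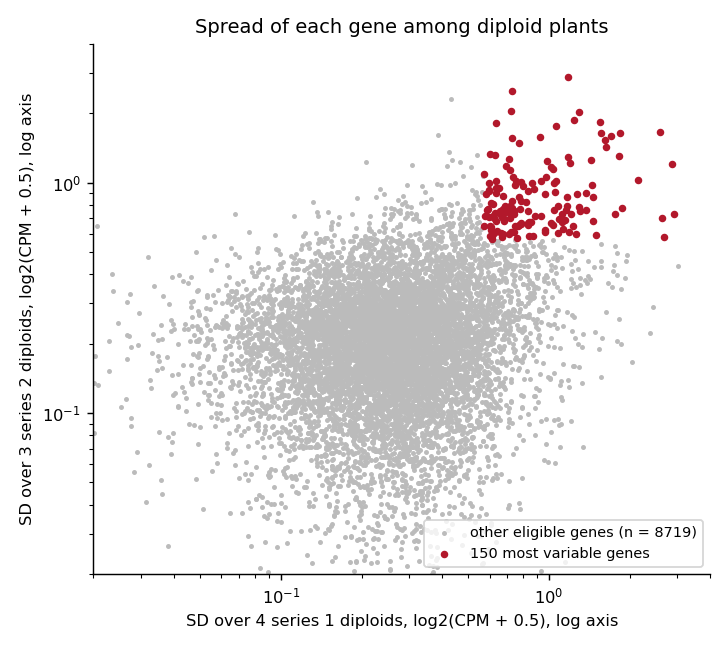
SD of log2(CPM + 0.5) over the 4 series 1 diploids (horizontal, log axis) and the 3 series 2 diploids (vertical, log axis) for each eligible gene, with the 150 variable genes in red. The red genes fill the upper right corner by construction, above 0.57 on both axes, and 59 genes with an SD below 0.02 lie outside the axes.

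The gene ranked 1 shows what this spread looks like in counts. In series 1 it had 0.278 and 0.299 CPM in the disomic haploids, against 32.7, 58.6 and 0.515 CPM in the haploids. Its diploids stood at 1.58, 107, 16.4 and 75.1 CPM, its trisomics at 170, 50.5, 54.6, 78.9 and 178 CPM, and its tetrasomics at 1.93, 108 and 3.52 CPM. Series 2 values were 108, 161, 12.3 and 62.5 CPM in monosomics, 7.57, 2.11 and 25.7 CPM in diploids and 24.5, 23.4 and 17.1 CPM in trisomics. Plants of 1 group thus differed by up to more than 100-fold, as in haploids, while the series 2 trisomics lay close together. None of the 8 comparisons between groups called this gene, and its standard errors were between 0.81 and 2.47 (log2).

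The gene ranked 3 had the highest level of the 3 genes at the head of the list. It had 10049 and 7501 CPM in the disomic haploids, against 682, 14.6 and 1123 CPM in the haploids. In diploids it had 5659, 405, 573 and 814 CPM, in trisomics 3152, 4666, 3800, 2888 and 1835 CPM, and in tetrasomics 6878, 5763 and 6498 CPM. Its series 2 levels were far lower, at 71.1, 190, 324 and 37.8 CPM in monosomics, 6.10, 6.16 and 44.1 CPM in diploids and 265, 84.6 and 242 CPM in trisomics. The disomic haploids lay above all 3 haploids, with a log2 fold change of 3.75 (SE 1.17), which edgeR's quasi-likelihood test with Benjamini-Hochberg adjustment did not call (adjusted p = 0.0668).

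The gap between the series was wider for the variable genes than for the others. It is a gap between means of the few diploids whose spread chose the genes. Means of few plants differ more where plants differ more, so a wider gap was built into the choice and is given only as a description. Series 2 and series 1 diploid means differed by a median of 0.75 on the log2 scale for the variable genes and 0.32 for the others. They differed by more than 4-fold for 15 variable genes (10.0%) and 114 others (1.31%). The tables of the series were made separately, so the gap between plants and the gap between series preparations cannot be told apart.

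Faint genes were left out by the rule, which asked for a mean of at least 10 CPM over these same diploids. Such a mean can rest on 1 plant, as for the gene ranked 9, with 45.0, 6.56, 7.03 and 7.57 CPM in series 1 diploids. The levels are therefore given as a description. Mean diploid CPM of the other eligible genes had a median of 29.7 in series 1 and 31.4 in series 2. The variable genes had medians of 35.5 and 34.9. Per length they stood higher, with a median of 19.9 RPKM (CPM per kilobase of gene model) in series 1 and 17.6 RPKM in series 2, against 6.67 and 6.93 RPKM. Their gene models were shorter, with a median of 2408 bp against 4740 bp. In series 1 diploids 35 of them averaged at least 100 CPM, and 20 did so in both series. Across all 27 libraries 109 of the 150 varied by more than 10-fold, and 15 fell below 1 CPM in at least 1 library.

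The spread of the same genes in the 6 groups that had no part in the choice was also wider than that of other genes. In series 1, the median SD was 0.47 against 0.18 for the other eligible genes in disomic haploids, 0.83 against 0.23 in haploids, 0.71 against 0.30 in trisomics and 0.38 against 0.16 in tetrasomics. In series 2 it was 0.68 against 0.29 in monosomics and 0.46 against 0.13 in trisomics. The ratios ran from 2.37 in series 1 trisomics to 3.62 in haploids. Because leaves were measured whole, fewer cells of a type and less RNA per cell cannot be told apart in any of these differences.

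Single plants set part of these medians. Without haploid replicate 2 the haploid median was 0.53 against 0.16, a ratio of 3.36. Without tetrasomic replicate 2 the tetrasomic median was 0.22 against 0.13, a ratio of 1.73, where it had been 2.45 with all 3 plants. With any other plant left out of a group of 3 or more, the ratio stayed between 1.99, without monosomic replicate 3, and 4.14, without haploid replicate 1.

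**Figure D2:**
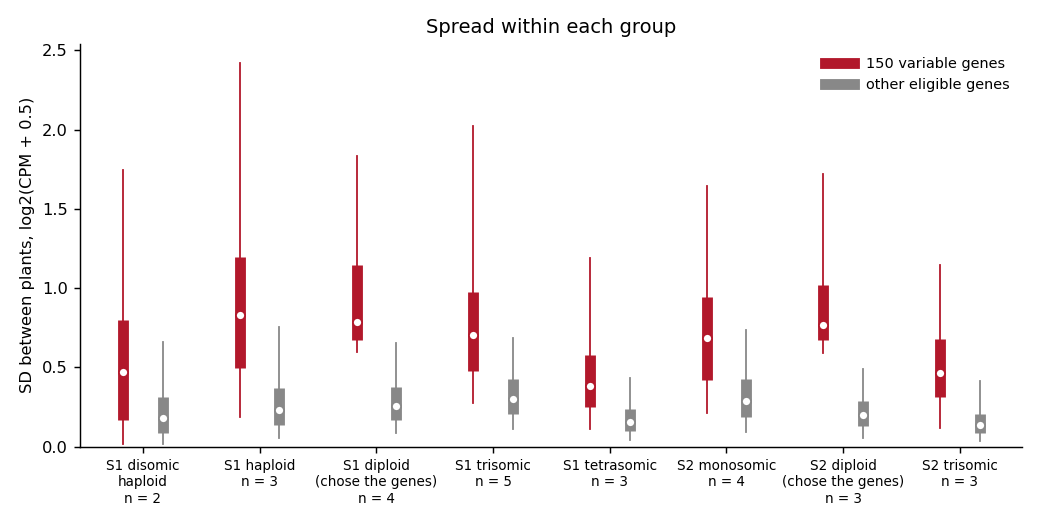
SD between plants of 1 group, in log2(CPM + 0.5), for the 150 variable genes (red) and the other eligible genes (grey). White dots are medians, thick bars the middle 50% of genes and thin lines the 5th to 95th percentile; the diploid groups chose the genes, and in the other 6 groups the red median is 2.37 to 3.62 times the grey one.

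Most variable genes were variable somewhere else as well, but few were so everywhere. Of the 150, 135 (90%) exceeded the 95th percentile of SD among eligible genes in at least 1 of the 6 other groups, against 15.3% of the other eligible genes. In at least 3 groups 85 did so (56.7%), against 2.71% of the others. Only 5 variable genes did so in all 6 groups, and 15 did so in none. The rank order carried over weakly: over all eligible genes the smaller diploid SD correlated with the SD in the 6 other groups at a Spearman coefficient of 0.19 to 0.30, given as a description over genes, which are not independent.

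The 5 genes that were wide in every group, singled out after their values were seen, ranked 9, 12, 40, 89 and 119. The gene ranked 12, with a gene model of 438 bp, had 0 and 0.718 CPM in disomic haploids, against 18.8, 21.7 and 1.83 CPM in haploids. It had 1.20, 68.5, 86.9 and 116 CPM in series 1 diploids, 306, 13, 96.0, 135 and 107 CPM in trisomics and 5.63, 65.6 and 4.55 CPM in tetrasomics. In series 2 it had 419, 215, 79.6 and 100 CPM in monosomics, 290, 54.0 and 134 CPM in diploids and 141, 124 and 67.1 CPM in trisomics. Its values overlapped between all groups of each series except the disomic haploids, which lay below every other library of series 1.

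In the share of spread they carried, 1.69% of the eligible genes held several times that percentage. The variable genes made up 10.9% of all squared deviations from group means in the 13 non-diploid libraries of series 1, and 8.29% in the 7 of series 2. By group the share was 9.04% in disomic haploids, 14.3% in haploids, 9.70% in series 1 trisomics, 10.6% in tetrasomics, 7.47% in monosomics and 12.2% in series 2 trisomics. In the diploids that chose them it was 13.1% in series 1 and 19.6% in series 2.

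How the variable genes moved together was described from the deviations of each non-diploid library from its group mean, so that neither dosage nor the diploids that chose the genes entered. In series 1 the first principal component of the 150 genes held 39.6% of their standardized variance, against 31.9% for all eligible genes. In series 2 it held 39.7%, against 47.0% for all eligible genes. The mean absolute correlation between gene pairs was 0.41 against 0.37 in series 1 and 0.45 against 0.48 in series 2. The variable genes were thus about as correlated with each other as eligible genes in general. The 13 and 7 libraries share their totals and their scaling, which bear on every such correlation. Without haploid replicate 2 the series 1 component held 32.0%.

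Average-linkage clustering of the series 1 deviations into 4 clusters gave cluster A with 86 genes, B with 29, C with 29 and D with 6. Their separation in series 1 (mean correlation 0.44 within and -0.15 between clusters) is what made them. In series 2, which had no part in the clustering, the mean correlation was 0.09 within clusters and -0.01 between them, a difference of 0.10. The difference kept its sign for each of 20 libraries left out in turn. It was 0.051 without haploid replicate 3, 0.053 without series 2 trisomic replicate 2, 0.064 without haploid replicate 2, and 0.16 without series 1 trisomic replicate 2 or monosomic replicate 3. Within single clusters the series 2 means were 0.09 for A, 0.08 for B, 0.10 for C and 0.25 for D.

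The opposition between clusters was mostly a feature of series 1. Clusters A and B were opposed in series 1 with a mean correlation of -0.33, and stood at -0.02 in series 2. Clusters B and C stood at -0.25 in series 1 and -0.10 in series 2. The closest pairs carried over better than the clusters did. Of 11175 gene pairs, 442 had a correlation above 0.8 in series 1, and these averaged 0.24 in series 2, where 69.0% were positive against 51.9% of all pairs. The 214 pairs below -0.8 in series 1 averaged -0.12 in series 2, and 59.8% of them were negative there.

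**Figure D3:**
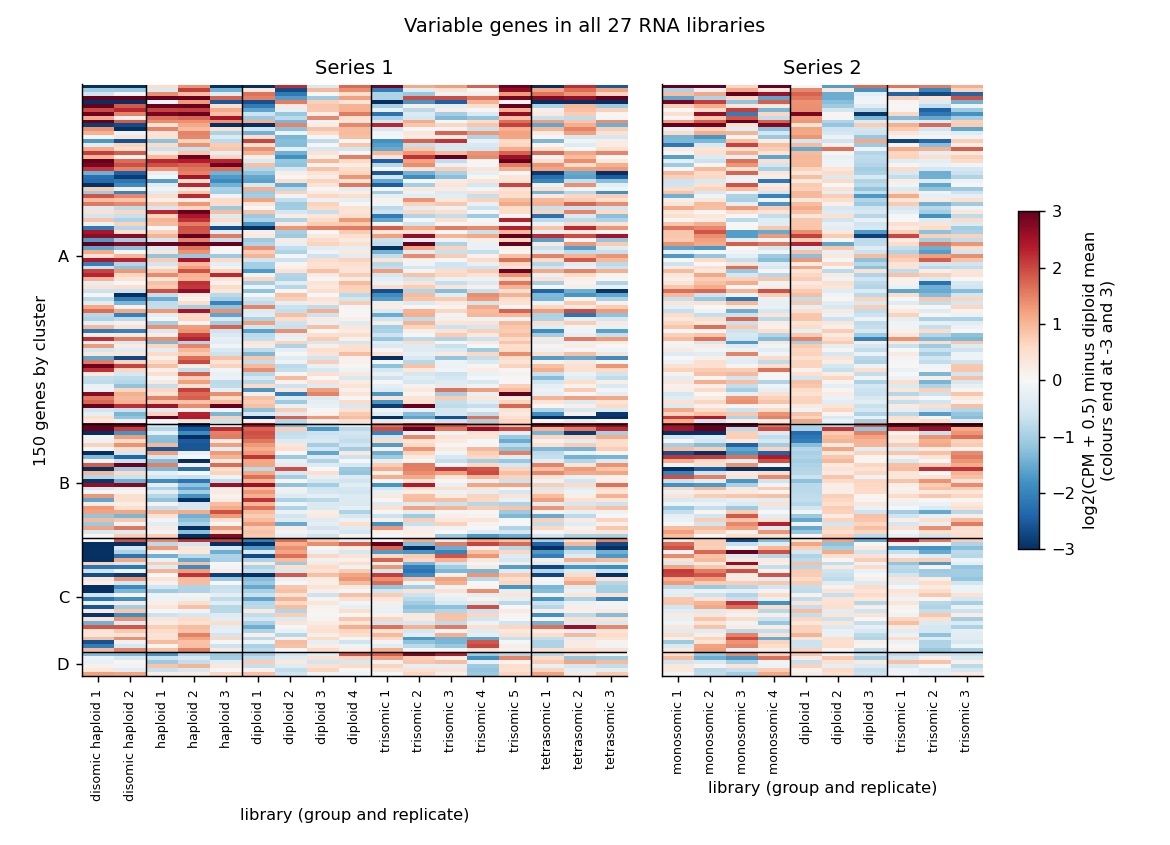
Level of each of the 150 variable genes in the 27 RNA libraries, as the difference in log2(CPM + 0.5) from the mean of the diploids of its series, with genes in rows by cluster (A to D) and libraries in columns by group. Whole blocks of a cluster share a colour in single plants, such as haploid replicate 2 and series 1 diploid replicate 1, while columns of the same group often differ.

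Cluster A, the largest, was set apart by single plants. Its mean level, as a log2 difference from the diploid mean of its series, was 0.44 and -0.12 in the disomic haploids, against 0.55, 1.42 and -0.01 in the haploids. It was -0.38, -0.35, 0.27 and 0.45 in series 1 diploids, -0.74, 0.22, -0.01, 0.11 and 1.10 in trisomics and -0.25, 0.23 and -0.16 in tetrasomics. Series 2 levels were 0.26, 0.50, 0.23 and 0.06 in monosomics, 0.70, -0.08 and -0.62 in diploids and 0.08, -0.50 and -0.14 in trisomics. Haploid replicate 2 and trisomic replicate 5 stood highest, and the groups of series 1 overlapped. Haploid replicate 2 was the highest of the haploids for 66 of the 86 genes.

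Cluster B stood lowest in haploid replicate 2, where cluster A stood highest. Its level was -0.11 and 0.36 in the disomic haploids, against -0.38, -1.94 and 0.86 in the haploids. It was 1.30, -0.32, -0.52 and -0.47 in series 1 diploids, -0.10, 0.73, 0.30, 0.42 and -0.19 in trisomics and 0.24, -0.01 and 0.48 in tetrasomics. Series 2 levels were -0.12, 0.03, 0.08 and 0.24 in monosomics, -0.99, 0.55 and 0.44 in diploids and 0.37, 0.57 and 0.94 in trisomics. In series 1 diploids a single plant, replicate 1, was the highest for 28 of the 29 genes. In series 2 diploids replicate 1 was the lowest for 25 of the 29 genes and the highest for 65 of the 86 genes of cluster A. The 29 genes had short models, with a median of 1920 bp, and a median diploid level of 43.2 RPKM in series 1, against 2754.5 bp and 16.9 RPKM in cluster A. Short models were not particular to cluster B, since cluster C had medians of 1778 bp and 26.5 RPKM.

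Cluster C was lowest in disomic haploid replicate 1 and series 1 diploid replicate 1. Its level was -1.43 and -0.37 in the disomic haploids, against 0.17, 0.41 and -0.51 in the haploids. It was -1.14, 0.47, 0.28 and 0.39 in series 1 diploids, 0.53, -0.71, -0.10, 0.34 and -0.01 in trisomics and -0.91, 0.08 and -0.49 in tetrasomics. The series 2 plants stood at 0.40, 0.63, 0.45 and -0.05 in monosomics, 0.13, -0.02 and -0.11 in diploids and 0.00, -0.34 and -0.53 in trisomics. Series 1 diploid replicate 1 was the lowest diploid for 24 of its 29 genes. Cluster D, with 6 genes and a median diploid level of 2.02 RPKM, ranged from -1.09 to 0.85 in series 1 trisomics, and its lowest library, replicate 4, also had the smallest total of counted reads.

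**Figure D4:**
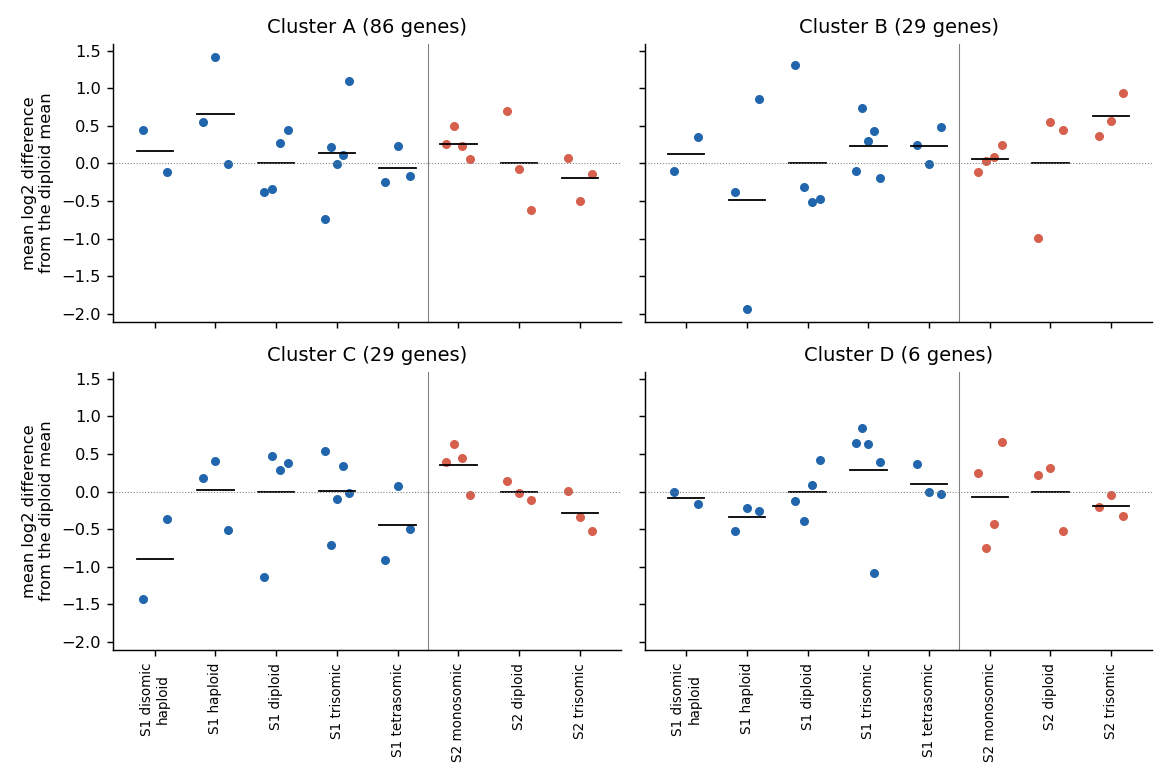
Mean level of each cluster per library, as the log2 difference from the diploid mean of its series (vertical), by group (horizontal; S1 and S2 are series 1 and 2). Points are libraries and bars group means; haploid replicate 2 lies at 1.42 in cluster A and -1.94 in cluster B, and the diploid points chose the genes.

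Neighbouring identifiers held some of the tightest pairs. The numbers are taken to follow the order of genes along the genome, which the files do not state. Of the variable genes 15 precede the left-out run and 135 follow it. In this order 15 adjacent pairs lay within 10 identifiers of each other, and their correlation had a median of 0.39 in series 1 and 0.53 in series 2, against 0.13 and 0.03 over all 11175 pairs. Of the 15 pairs, 5 exceeded 0.5 in both series, against 7.15% of all pairs. Other neighbours were opposed in both series. These were the pairs ranked 3 and 97 (-0.72 and -0.57), 34 and 127 (-0.41 and -0.57), 32 and 77 (-0.27 and -0.69), and 147 and 83 (-0.51 and -0.15). In 7 of the 15 pairs both genes lay in the same cluster, as they did in 40.1% of all pairs.

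The pair ranked 119 and 146 varied most alike, with a correlation of 0.99 in each series. The gene ranked 119 had 3.00 and 9.81 CPM in disomic haploids and 17.6, 8.30, 8.41, 77.9 and 20.5 CPM in series 1 trisomics. The gene ranked 146 had 2.67 and 9.10 CPM in the same disomic haploids and 10.2, 7.13, 5.65, 53.0 and 14.6 CPM in the same trisomics. The ratio of their CPM lay between 1.08 and 1.92 in the 17 libraries of series 1 and between 1.13 and 1.41 in the 10 of series 2. Reads shared between near-identical neighbours cannot be told apart from genes that vary together, so these pairs are uncertain. The pairs ranked 143 and 37 (0.85 and 0.99) and 77 and 123 (0.94 and 0.78) were also close in both series.

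How much of the dosage comparisons the variable genes carried depended on the measure. All 150 passed the filter on low counts in both series. A call is an adjusted p below 0.05 in edgeR's quasi-likelihood test, over 22435 genes in series 1 and 21825 in series 2. Over the 3 comparisons without diploids, 29 of the 150 were called in at least 1 (19.3%), against 10.4% of the other eligible genes. Most of these came from series 2 trisomics minus monosomics, with 24 (16%), against 7.11% of eligible and 14.8% of all tested genes. Disomic haploids minus haploids gave 6 (4.0%), against 3.98% of eligible and 6.74% of all tested genes. Tetrasomics minus trisomics gave 0, as for all tested genes. The median standard error of the variable genes was 0.45 to 0.62 (log2) across comparisons, against 0.17 to 0.24 for the other eligible genes, and their median absolute log2 fold change was 0.41 to 0.88, against 0.14 to 0.26. Imprecise estimates are larger in absolute size on average, so a larger standard error alone raises the shares of change given below. How far it did so was not tested.

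Trisomics were compared with monosomics in series 2 without the diploids, and this comparison gave the most calls. Of the 150 variable genes 24 were called (16%), 10 higher and 14 lower in trisomics. Of all tested genes 14.8% were called, 9.81% higher and 4.95% lower, and of the eligible genes, which leave out the run taken for 1L, 7.11%. The share among variable genes is close to that among all tested genes, which include the run taken for 1L. It is above that among the eligible genes, from which the variable genes were drawn. Their calls made up 3.80% of the 631 eligible calls. They made up 15.0% of the 347 eligible genes with an estimated change over 2-fold and 13.3% of the summed squared log2 fold change of eligible genes. The median log2 fold change was -0.32 for the variable genes and -0.10 for all eligible genes. DESeq2 called 36, with 12 higher and 24 lower. The DESeq2 counts, here and below, have no share of all tested genes beside them, so they are not set against a background. The edgeR count was 12 without trisomic replicate 2 and 14 without trisomic replicate 3, and 17 to 27 without any other library.

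The 10 rises had log2 fold changes of 0.96 to 5.18 and the 14 falls of -1.16 to -4.99. By cluster, 3 genes of A rose and 10 fell, 5 of B rose and 0 fell, 1 of C rose and 4 fell, and 1 of D rose. The median log2 fold changes were -0.42 in A, 0.15 in B, -0.78 in C and -0.39 in D, so that the median of D was below 0 although its only call was a rise. The 4 clusters were not compared with each other by a test.

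Zm00004b001483, ranked 47 and in cluster B, had the largest rise. Series 2 trisomics had 127, 307 and 295 CPM, against 6.71, 11.4, 2.27 and 8.36 CPM in monosomics, with diploids between them at 35.7, 90.1 and 89.7 CPM. Every trisomic plant thus lay above every diploid plant, and every diploid above every monosomic. Trisomics averaged 243 ± 101 CPM (SD, n = 3) and monosomics 7.19 ± 3.82 CPM (SD, n = 4), with a log2 fold change of 5.18 with an SE of 0.53 and, in edgeR, an adjusted p of 7.26e-05. Over 13 alternative settings the fold change ran from 4.91 to 5.51 and the gene was called in all 13, with a largest adjusted p of 0.00177.

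In series 1 the same gene showed no such order. It had 0.779 and 34.1 CPM in disomic haploids, against 28.4, 14.9 and 102 CPM in haploids. Diploids stood at 41.7, 281, 72.2 and 33.5 CPM, trisomics at 157, 211, 321, 272 and 116 CPM and tetrasomics at 135, 179 and 130 CPM. Tetrasomics did not lie above trisomics, and diploid replicate 2 lay among the trisomics. No series 1 comparison called it in edgeR. The difference between the series was not tested.

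Zm00004b007943, ranked 32 and also in cluster B, has a gene model of only 243 bp. Series 2 trisomics had 200, 207 and 298 CPM, against 17.5, 9.73, 32.7 and 20.4 CPM in monosomics, and diploids had 56.2, 139 and 178 CPM. The means were 235 ± 54.6 CPM in trisomics (SD, n = 3) and 20.1 ± 9.52 CPM in monosomics (SD, n = 4), with a log2 fold change of 3.61 with an SE of 0.47 (adjusted p = 0.000325 in edgeR). It was called under all 13 alternatives, with an adjusted p of at most 0.00201. In series 1 its disomic haploids, at 6.73 and 40.1 CPM, lay below the haploids, at 137, 49.7 and 142 CPM, with a log2 fold change of -2.24 that edgeR did not call (adjusted p = 0.142).

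Zm00004b015207, ranked 4 and in cluster A, had the largest fall. Series 2 trisomics had 2.77, 2.15 and 2.79 CPM, against 32.8, 38.7, 167 and 101 CPM in monosomics, and diploids had 59.1, 5.74 and 13.7 CPM. The trisomics lay close together while the monosomics spread over 5-fold. The means were 2.57 ± 0.363 CPM in trisomics (SD, n = 3) and 84.9 ± 62.8 CPM in monosomics (SD, n = 4), with a log2 fold change of -4.99 with an SE of 0.90 (adjusted p = 0.0029 in edgeR). The call held under all 13 alternatives, with fold changes of -5.28 to -4.32 and an adjusted p of at most 0.02. In series 1 the groups overlapped, with trisomics at 7.39, 6.29, 13, 16 and 35.8 CPM and diploids at 45.8, 2.95, 14.5 and 20.2 CPM.

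Disomic haploids were compared with haploids to see the second copy of 1L in a haploid genome. Of the 150 variable genes 6 were called, 3 higher and 3 lower in disomic haploids, in edgeR. Of all tested genes 6.74% were called, 4.66% higher and 2.08% lower, and of the eligible genes 3.98%, so that the share of the variable genes was at the level of the eligible ones. DESeq2 called 26, with 6 higher and 20 lower. The balance was the other way in limma-trend, with 5 higher and 2 lower, also without a share of all tested genes beside it. The variable genes made up 1.70% of the 353 eligible calls, 11.8% of the 578 eligible genes changed over 2-fold and 14.6% of the summed squared log2 fold change. Their median log2 fold change was -0.45, against -0.07 for all eligible genes. By cluster the medians were -0.68 in A, 0.40 in B, -1.14 in C and 0.33 in D. Fitted on the haploids and disomic haploids alone, edgeR called 0 of the 150. With all libraries of the series in the fit, the count was 1 without haploid replicate 1, 2 without disomic haploid replicate 1, 3 without haploid replicate 2 and 9 without haploid replicate 3.

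Zm00004b031301, ranked 114 and in cluster A, had the next largest fall among called variable genes with groups that did not overlap. Disomic haploids had 7.74 and 3.23 CPM, against 26.6, 75.8 and 43.7 CPM in haploids. The means were 5.48 ± 3.19 CPM in disomic haploids (SD, n = 2) and 48.7 ± 25 CPM in haploids (SD, n = 3), with a log2 fold change of -3.21 with an SE of 0.81 (adjusted p = 0.027 in edgeR). The call held under only 5 of 10 alternatives, with adjusted p from 0.000205 to 0.179. Tetrasomics, at 7.12, 8.0 and 6.14 CPM, lay below all series 1 diploids, at 42.0, 18.3, 15.7 and 26 CPM, a set of plants whose spread chose the gene. In series 2 trisomics had 35, 25.4 and 33.2 CPM, against 37.5, 41.2, 30.9 and 56.0 CPM in monosomics, which overlapped.

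Tetrasomics against trisomics asks for the fourth copy of 1L. In edgeR 0 of the 150 variable genes and 0.0% of all tested genes were called. There 21 variable genes (14.0%) had an unadjusted p below 0.05, against 7.32% of the eligible genes, and DESeq2 called 6 of the 150. Even so, 39 variable genes had an estimated change over 2-fold, 23.2% of the 168 eligible genes that did. They held 16.7% of the summed squared log2 fold change, and 35 of the 39 were lower in tetrasomics. By edgeR's estimates 91 of the 150 were lower, and by limma-trend's 79, with median log2 fold changes of -0.17 and -0.06.

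The 3 comparisons without diploids share no library with each other. The variable genes had the same sign in disomic haploids minus haploids and in series 2 trisomics minus monosomics for 96 of 150 (64.0%), against 53.4% of the other eligible genes. For disomic haploids minus haploids and tetrasomics minus trisomics the count was 108 (72.0%), against 64.4%. For tetrasomics minus trisomics and series 2 trisomics minus monosomics it was 88 (58.7%), against 51.0%. In all 3 together 49 were lower with more copies of 1L (32.7%), against 24.3% of the others, and 22 were higher (14.7%), against 10.1%. The order was the other way for trisomics minus diploids, which use the plants that chose the genes. There 94 of 150 (62.7%) had the same sign in series 1 and series 2, against 67.7% of the others. All these signs are those of the edgeR estimates. Of the 150, edgeR put 91 lower and limma-trend 79 in tetrasomics minus trisomics. For disomic haploids minus haploids the numbers were 93 and 88, and for series 2 trisomics minus monosomics 95 and 96. These counts are descriptions over genes that vary together, without a test.

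The 5 comparisons with diploids use the plants that chose the genes, so their counts are given as a description and nothing is read from them. Between series 1 trisomics and diploids edgeR called 0 of the 150, beside 1.52% of all tested genes (1.22% higher, 0.299% lower) and 0.643% of eligible ones. Of the 150, 11 (7.33%) had an unadjusted p below 0.05 in edgeR, against 12.9% of the eligible genes. DESeq2 called 3 of the 150 and limma-trend 1. Between tetrasomics and diploids 8 were called, 2 higher and 6 lower, beside 6.24% of all tested genes (4.58% higher, 1.66% lower) and 2.74% of eligible ones. Between haploids and diploids 3 were called, all higher, beside 1.89% of all tested genes (1.37% higher, 0.517% lower) and 1.13% of eligible ones, and DESeq2 called 13 higher and 3 lower.

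In series 2, 6 of the 150 were called between monosomics and diploids, 2 higher and 4 lower, beside 5.5% of all tested genes (0.893% higher, 4.61% lower) and 1.17% of eligible ones, and DESeq2 called 9 higher and 6 lower. Between series 2 trisomics and diploids 1 was called, lower in trisomics, beside 0.266% of all tested genes (0.247% higher, 0.0183% lower) and 0.0338% of eligible ones. That call was lost when any of the 6 libraries compared was left out. Single libraries moved these counts. The series 1 trisomic count was 4 without diploid replicate 1 and 2 without trisomic replicate 1. The tetrasomic count was 23 when diploid replicate 1 was dropped and 0 without diploid replicate 2 or tetrasomic replicate 1 or 3. Dropping diploid replicate 3 left 4 tetrasomic calls and dropping diploid replicate 4 left 2, and in both cases, as with no filter on low counts, all those left were rises. Tetrasomic calls numbered 5, 1 higher and 4 lower, once tetrasomic replicate 2 was dropped. The haploid count was 0 without diploid replicate 2 or 4 or haploid replicate 1. The monosomic count was 15 without diploid replicate 1, 10 without monosomic replicate 3 (6 higher and 4 lower) and 3 without monosomic replicate 1 or 2.

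Over these 5 comparisons the variable genes held 7.74% to 13.7% of the summed squared log2 fold change of eligible genes. They were 24.3% of the 70 eligible genes changed over 2-fold in series 1 trisomics, 14.4% of 277 in tetrasomics, 17.2% of 262 in haploids, 24.0% of 129 in monosomics and 26% of 77 in series 2 trisomics. Their share of eligible calls was 3.29% in tetrasomics, 3% in haploids and 5.77% in monosomics. In series 2 trisomics it was 33.3%, which is 1 gene of 3.

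**Figure D5:**
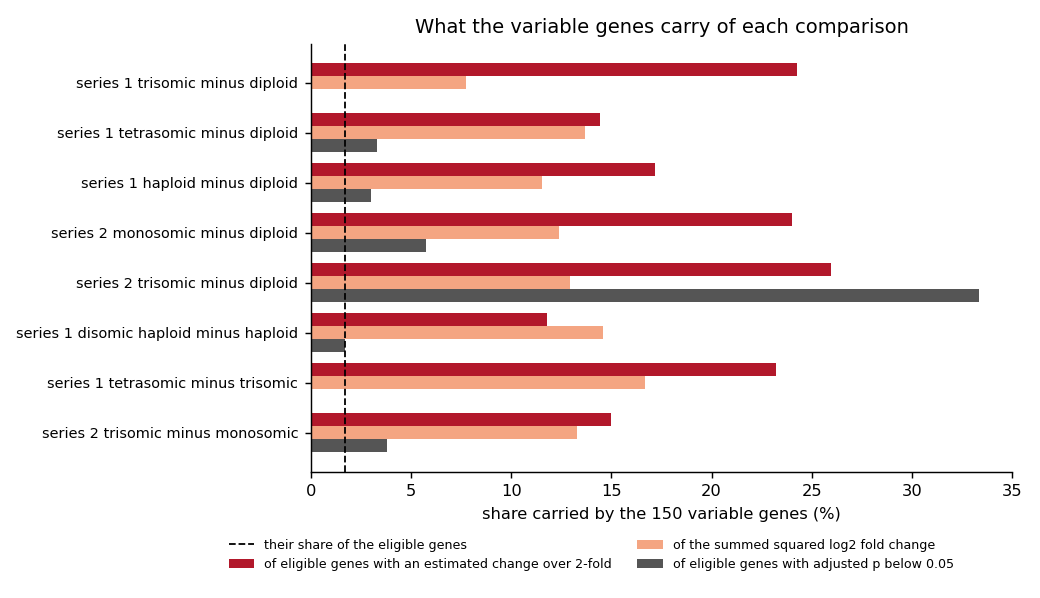
Share of each comparison carried by the 150 variable genes among the 8869 eligible genes, in percent, with bars for eligible genes changed over 2-fold (red), summed squared log2 fold change (orange) and eligible genes with adjusted p below 0.05 (dark grey). The dashed line marks their 1.69% share of eligible genes. The red and orange bars pass it in the 3 comparisons without diploids. They also pass it in the others, which use the diploids that chose the genes, so nothing is read from those. The larger standard errors of these genes alone raise both shares. The dark bar for series 2 trisomics minus diploids is 1 gene of 3.

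Other called genes show what the changes without diploids looked like. The gene ranked 86, in cluster A, is singled out after its values were seen. In series 2 it had 51.9, 54.0, 33.9 and 61.4 CPM in monosomics, 28.0, 12.3 and 12 CPM in diploids and 5.10, 5.33 and 6.37 CPM in trisomics. The monosomic plants lay above the trisomic plants, with the diploids between them. Its log2 fold change between trisomics and monosomics was -3.06, with an SE of 0.29 (adjusted p = 5.43e-05 in edgeR).

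In series 1 the gene ranked 86 had 7.90 and 7.96 CPM in disomic haploids, against 49.0, 83.3 and 16.1 CPM in haploids. It had 5.23, 13.1, 17.8 and 20.6 CPM in diploids, 1.62, 6.66, 4.93, 7.65 and 18.3 CPM in trisomics and 2.04, 4.30 and 1.25 CPM in tetrasomics. The tetrasomics overlapped the trisomics. Both disomic haploids lay below all haploids, a difference that edgeR did not call.

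The gene ranked 70, also in cluster A, was the only one of the 150 called in more than 1 of the 3 comparisons without diploids, against 48 of the other eligible genes (0.551%, beside 0.667%). It is likewise singled out after its values were seen. It had 63.0 and 92.8 CPM in disomic haploids, against 20.1, 20.7 and 21.2 CPM in haploids, a log2 fold change of 1.88 with an SE of 0.44 (adjusted p = 0.0185 in edgeR). Series 2 trisomics had 56.9, 74.2 and 84 CPM, against 9.31, 13.8, 25.4 and 14.7 CPM in monosomics, a log2 fold change of 2.24 with an SE of 0.48 (adjusted p = 0.00879 in edgeR). Fitted on the haploids and disomic haploids alone, edgeR no longer called the first of these (adjusted p = 0.0734). Its series 1 diploids stood at 93.4, 44.0, 29.8 and 36.6 CPM, so that the spread between diploids reached the range of the disomic haploids.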

How the data were processed

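The counts are whole numbers of reads per gene model, deposited by the authors as 1 table per series. The authors also deposited RPKM tables, which equal the counts divided by 1 length per gene and the library total (largest relative difference 1.36e-13). Per the labels' protocols, extraction used TRIzol and the poly(A) libraries TruSeq kits. Bowtie, TopHat, Cufflinks and Cuffdiff appear in the submitters' processing notes. The sources used here give neither their versions and roles nor the genome build. The 2 DNA libraries were not used.

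Counts were tested with edgeR 4.0.16 (R 4.3.3): TMM scaling, filterByExpr, robust quasi-likelihood F-tests (two-sided), 1 fit per series with group as the only term, and Benjamini-Hochberg adjustment over all genes tested in the series. Biological variation was 0.318 in series 1 and 0.273 in series 2 (coefficient). The rule, CPM, SDs and correlations used Python 3.11.15. The steps were tested on simulated data. Alternatives were DESeq2 1.42.0, limma-trend 3.58.1, the compared libraries alone, no filter, a replicate block, other rules for the list and each library left out.

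None of the 40306 identifiers matched the reference gene table (0 matched), so only 4 genes were named by identifier, 2 higher and 2 lower: the largest called changes with groups that do not overlap in the 3 comparisons without diploids. Other genes are given by rank. The planned lists of named genes could not be used. The members and lists were chosen with earlier results of these data known.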

Additional observations from a re-analysis of the deposited data

Results flagged for a closer look

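Groups of 2 or 3 libraries, the haploids among them, were not examined with Dixon's test. It was applied only to series 1 diploids, series 1 trisomics and series 2 monosomics, with 4 or more libraries each. Cluster levels and gene CPM gave 33 sets of values over these 3 groups, and 6 held a library far from the others at the 95% critical value. Chance gives about 1 in 20 for a single set of normally distributed values, but the 33 sets share plants and are not independent. Cluster levels were examined on the log2 scale and single genes as CPM. A high plant stands further from the others in CPM than on the log2 scale, so that rate need not hold for the genes. Whether the gene flags hold on the log2 scale was not tested. In series 1 diploids, replicate 1 stood far above the others in the level of cluster B, at 1.30 (log2), and far below them in cluster C, at -1.14. The same plant had 5659 CPM of the gene ranked 3. Diploid replicate 2 had 280.5 CPM of Zm00004b001483. These 4 values belong to plants whose spread chose the genes. In series 1 trisomics, which had no part in the choice, replicate 4 stood far below the others in cluster D, at -1.09, and replicate 5 had 139.3 CPM of the gene ranked 2, against 4.74 to 29.1 CPM in the other 4.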

How the results depend on the processing

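Of the values recomputed under alternatives, 203 stayed close to those given and 97 moved. A count stayed close if it was within 1.5 times the count given. Another value stayed close if it moved by no more than 1 SD of its leave-one-out values, or 10% where it had none. That SD comes from values that are themselves judged, so an unstable value is allowed a wider move. The haploid median SD of 0.83 thus counted as close at 1.03 and at 0.58. The tally is not a measure of stability. The balance of calls turned in monosomics, to 9 higher and 6 lower in DESeq2 and 6 higher and 4 lower without monosomic replicate 3. It turned in tetrasomics, to 4 higher and 0 lower without diploid replicate 3. In disomic haploids against haploids it was 3 higher and 3 lower in edgeR, and 6 and 20 in DESeq2. There limma-trend gave 5 higher and 2 lower, and the replicate block 0 and 4. For the moves below the cause was not tested. DESeq2 called more of the variable genes: 3 in series 1 trisomics, 18 in tetrasomics (6 higher, 12 lower) and 16 in haploids, each against diploids; 15 in monosomics and 5 in series 2 trisomics, each against diploids; 26 in disomic haploids against haploids and 6 in tetrasomics against trisomics. limma-trend called 1 in series 1 trisomics and 1 in haploids. It moved the share of squared change to 8.72% in series 1 trisomics and to 14.5% in tetrasomics against trisomics. Fitting the compared libraries alone gave 0 calls in haploids and in series 2 trisomics against diploids, and 0 in disomic haploids against haploids. Without the filter on low counts 2 were called in tetrasomics and 1 in haploids.

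Correlations of same-numbered deviations ran from -0.36 to 0.37. They were too few in each comparison to decide whether replicate numbers pair the plants. With the replicate block 4 were called in tetrasomics and 0 in haploids. The replicate block by replicate number, and by the S number of the series 2 labels, gave 0 in series 2 trisomics against diploids, and between trisomics and monosomics 25 and 17. A list chosen at a mean of at least 20 CPM shared 90 genes and had 5 calls in haploids and 0 in series 2 trisomics against diploids. TMM-scaled CPM moved the series 1 share of spread to 11.7% and the series 2 gap between clusters to 0.15.

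Leaving out 1 library at a time gave 0 to 4 calls in series 1 trisomics, 0 to 23 in tetrasomics, 0 to 4 in haploids, 3 to 15 in monosomics and 0 in series 2 trisomics, each against diploids. It gave 1 to 9 in disomic haploids against haploids, 0 in tetrasomics against trisomics and 12 to 27 in trisomics against monosomics. Shares of squared change, in the same order, ran over 7.22% to 10.0%, 12.2% to 16.0%, 8.35% to 15.1%, 11.2% to 15.1%, 10.5% to 15.8%, 12.1% to 15.7%, 14.9% to 19.0% and 12.3% to 14.3%. Median SDs ran over 0.53 to 1.03 in haploids, 0.59 to 0.76 in series 1 trisomics, 0.22 to 0.40 in tetrasomics, 0.47 to 0.71 in monosomics and 0.36 to 0.41 in series 2 trisomics. Shares of spread ran over 10.0% to 12.4% in series 1 and 7.78% to 9.51% in series 2. First components ran over 32.0% to 44.9% in series 1 and 39.6% to 47.4% in series 2. The gap between clusters ran over 0.051 to 0.16 (0.053 without series 2 trisomic replicate 2), and 71 to 134 genes of the list were kept when the rule was repeated without 1 diploid, an alternative chosen after the data were seen. With 2 to 5 plants a group, SDs of single genes are imprecise.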
